A study of Mus musculus with 48 samples.

Results

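Genes of the oxidative phosphorylation machinery were followed in the liver of diet-induced obese mice given more protein and less carbohydrate in a high-fat diet. The members were chosen by name: genes whose symbol starts with Nduf plus a, b, c, s or v, with Uqcr, with Cox4 to Cox8 or with Atp5, and the genes Sdha, Sdhb, Sdhc and Sdhd. Each gene was read on its brightest probe set among those with exactly 1 gene symbol. This gave 90 of 18193 measured genes. By their symbols alone they were placed as 36 of complex I, 4 of complex II, 8 of complex III, 17 of complex IV and 17 of complex V. Together these are 82 that are named as subunits. The other 8 are Ndufaf genes, which code for complex I assembly factors and not for subunits. A symbol need not match the complex that holds the protein. The symbols of all 90 equal current RefSeq symbols.

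Liver total RNA came from 48 male C57BL/6J mice, 12 per group, with 1 array for each mouse. For 10 weeks every mouse ate a high-fat diet rich in carbohydrate and low in protein, labelled HFHC, and the study kept mice that had become obese and glucose intolerant. They then either stayed on it or were switched to a counterpart with more protein and less carbohydrate, labelled HPHC, for 2 days (2-d) or 4 weeks (4-wk). The study calls these diets by their protein to carbohydrate ratio, and HPHC was read as the diet with the high ratio. The 4-wk mice were also older and were killed on other days than the 2-d mice, so duration, age and day of collection cannot be told apart. Values are log2 levels, a difference of 1 being a doubling. Array B25 of the HPHC 2-d group was left out, so 11 mice remain there. Array medians over all probe sets lay between 6.73 and 6.91.

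Oxidative phosphorylation takes place in the inner mitochondrial membrane. Complex I oxidizes NADH and complex II oxidizes succinate, and both pass electrons to coenzyme Q. Complex III hands them to cytochrome c, complex IV reduces oxygen, and complex V, the ATP synthase, uses the resulting proton gradient to make ATP. In liver, mitochondrial oxidation of fatty acids and amino acids feeds this chain, and most subunits are encoded in the nucleus. The nuclear respiratory factor NRF1, ETS-family factors and YY1 are known regulators of such genes.

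Sequence before the start of these genes was read from RefSeq promoters (GRCm38.p6, 250 bases before to 50 bases after the start site), which held 74 of the 90 members and 67 of the 82 subunits. The following 5 promoters are shown because their genes were called in the comparison of durations in HFHC mice and, in these letters, carry at least 1 of the motifs searched. They are Sdhd at chr9:50603800-50604099 on the minus strand, Sdha at chr13:74350191-74350490 on the minus strand, Uqcrc1 at chr9:108936398-108936697 on the plus strand, Atp5b at chr10:128083057-128083356 on the plus strand and Ndufb5 at chr3:32736813-32737112 on the plus strand, printed 5′ to 3′ along the gene, with motif matches in capitals.
Sdhd: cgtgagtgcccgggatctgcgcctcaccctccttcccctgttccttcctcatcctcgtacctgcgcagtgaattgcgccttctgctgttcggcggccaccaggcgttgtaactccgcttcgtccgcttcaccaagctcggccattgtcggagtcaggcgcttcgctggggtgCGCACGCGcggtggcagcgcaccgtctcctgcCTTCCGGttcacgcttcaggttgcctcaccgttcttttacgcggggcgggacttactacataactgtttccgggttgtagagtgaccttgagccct
Sdha: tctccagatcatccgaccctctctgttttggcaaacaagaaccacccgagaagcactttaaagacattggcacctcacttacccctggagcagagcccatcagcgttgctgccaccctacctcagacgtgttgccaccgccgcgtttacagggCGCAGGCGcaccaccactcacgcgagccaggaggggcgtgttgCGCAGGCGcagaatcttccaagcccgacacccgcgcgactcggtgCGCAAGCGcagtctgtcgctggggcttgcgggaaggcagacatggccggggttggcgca
Uqcrc1: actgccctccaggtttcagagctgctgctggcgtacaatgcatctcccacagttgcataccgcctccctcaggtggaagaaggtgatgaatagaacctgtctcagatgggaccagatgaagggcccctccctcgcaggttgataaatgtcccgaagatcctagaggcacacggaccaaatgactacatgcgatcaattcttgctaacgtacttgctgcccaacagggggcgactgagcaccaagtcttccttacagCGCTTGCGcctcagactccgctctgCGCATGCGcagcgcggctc
Atp5b: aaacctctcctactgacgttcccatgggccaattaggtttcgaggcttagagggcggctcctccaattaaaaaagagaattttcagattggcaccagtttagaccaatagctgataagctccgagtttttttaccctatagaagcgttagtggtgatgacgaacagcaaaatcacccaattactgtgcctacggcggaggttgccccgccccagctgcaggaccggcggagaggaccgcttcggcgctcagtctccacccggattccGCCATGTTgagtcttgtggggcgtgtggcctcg
Ndufb5: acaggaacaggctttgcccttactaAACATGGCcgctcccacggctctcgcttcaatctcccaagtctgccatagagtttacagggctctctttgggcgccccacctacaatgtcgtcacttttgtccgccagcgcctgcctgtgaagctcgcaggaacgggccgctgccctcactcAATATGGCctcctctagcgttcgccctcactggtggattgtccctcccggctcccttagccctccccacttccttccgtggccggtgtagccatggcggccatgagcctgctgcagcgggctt

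The motifs were searched on both strands as the core letters CGCANGCG for NRF1, CCGGAAG for ETS factors and AANATGGC for YY1. Sdhd held 1 NRF1 core, whose first base lies at -78 from the start site, and 1 ETS core, on the opposite strand, at -46. Sdha held 3 NRF1 cores, at -97, -54 and -9. Uqcrc1 held 2 NRF1 cores, both after the start site, at 7 and 32, and Atp5b held 1 YY1 core on the opposite strand at 18. Ndufb5 held 2 YY1 cores, at -225 and -73. Among the 67 subunit promoters, 22 (32.8%) held the NRF1 core, against 13.6% of 14367 measured genes with a promoter and 8.42% of all 27025 promoters. The ETS core was in 16 (23.9%, against 13.8% and 9.12%) and the YY1 core in 13 (19.4%, against 7.23% and 6.23%). These are counts of letters, not of bound factors, and Cox7c and Cox5a, also called below, had none of the 3 cores in their windows.

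The signal of 84 members lay above the median level of all probe sets, 6.79. The 6 below it were Cox6b2, Cox7a1, Cox7b2, Cox7c, Cox8b and Ndufb4. Cox7c, a small complex IV subunit, was read only on dim probe sets, with a mean level of 6.06 on the brighter of them. Ndufb4 had a mean level of 6.24 on its probe set, whereas 2 probe sets shared with the near-identical Ndufb4b and Ndufb4c, and left out for that reason, were at 11.7. In all, 10 probe sets with several symbols were left out. Of these, 7 belong to 5 members, and the other 3 are those of the complex I genes Ndufa11 and Ndufs6, shared with Ndufa11b and Ndufs6b, which are therefore not among the 90.

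Members varied slightly less between mice than genes in general. Their median SD was 0.19 in HFHC 2-d, 0.13 in HPHC 2-d, 0.14 in HFHC 4-wk and 0.13 in HPHC 4-wk mice, against 0.20, 0.17, 0.18 and 0.17 over all genes. Members also varied together. With group means removed, the median Pearson correlation over 47 mice was 0.54 for pairs of members above the median level, against 0.26 for such members paired with all other genes above that level. It was 0.67 within complex I, 0.57 within complex II, 0.58 within complex III, 0.49 within complex V and 0.28 within complex IV. The members with the lowest median correlation with the others were Cox4i2 (-0.35), Cox6a2 (-0.15) and Uqcrb (-0.06). These correlations describe the data; the pairs share the same arrays and hence anything that shifts a whole array. Because members move together, their directions are not independent of each other, and a count of members is not a count of replicates.

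Single mice therefore stood apart in the mean over the subunits, but not always in the same direction in every complex. Among HFHC 2-d mice, the one on A01 was highest for complex I (11.51) and complex IV (9.88) but lowest for complex II (11.82). The mean over all 82 subunits was lowest within each group in the mice on arrays A06 (HFHC 2-d, 11.07), B31 (HPHC 2-d, 11.23), A24 (HFHC 4-wk, 11.18) and B40 (HPHC 4-wk, 11.29). The left-out array B25 was at 11.05. Group means were 11.35 ± 0.12 (SD, n = 12) in HFHC 2-d, 11.42 ± 0.09 (SD, n = 11) in HPHC 2-d, 11.41 ± 0.09 (SD, n = 12) in HFHC 4-wk and 11.41 ± 0.08 (SD, n = 12) in HPHC 4-wk mice. The ranges of the 4 groups overlapped.

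**Figure D1:**
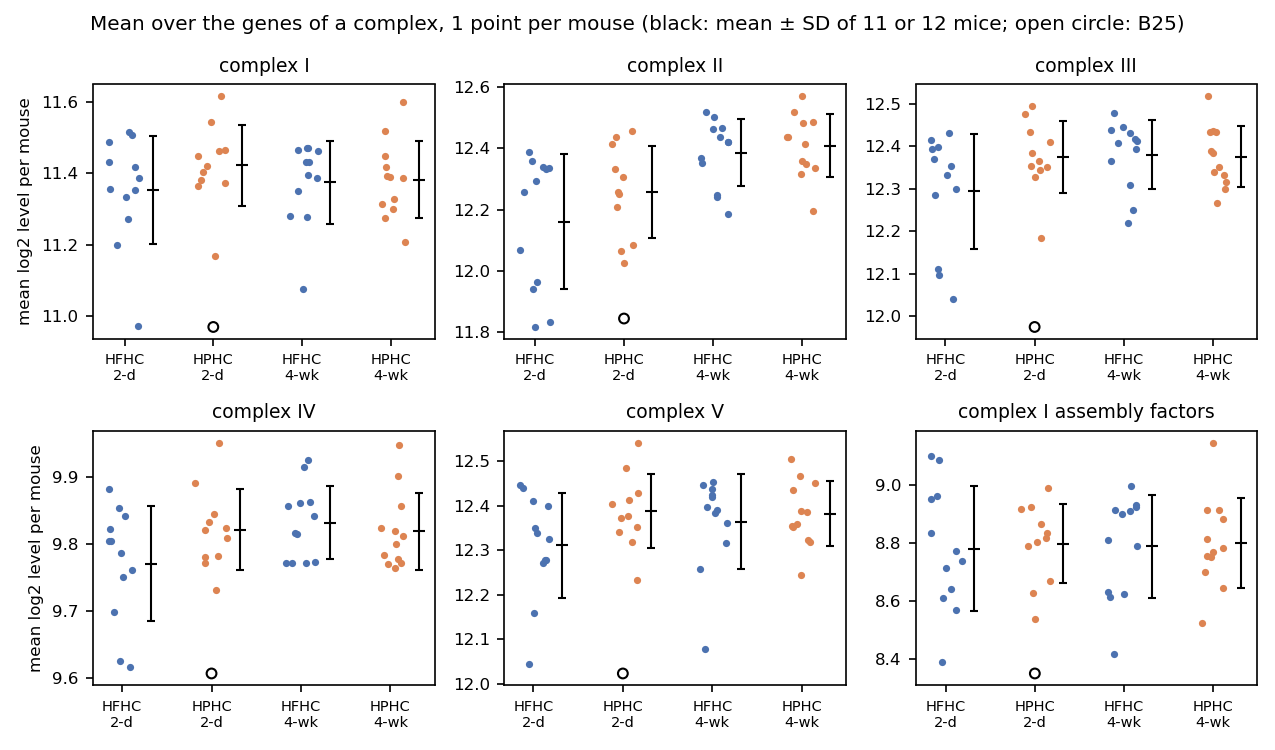
Mean log2 level over the genes of each complex (vertical axis, a different range in each panel) in each mouse of the HFHC and HPHC groups at 2-d and 4-wk; black marks are the mean ± SD of 11 or 12 mice and the open circle is the left-out array B25. The groups overlap in every panel; complex II averages 12.16 and 12.26 in the 2-d groups and 12.39 and 12.41 in the 4-wk groups.

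The first comparison asked how mice switched to HPHC differed from HFHC mice after 2 days. The switch raised protein and lowered carbohydrate at once. The study also reports that the switched mice took in fewer calories and gained less weight in these days. Protein, carbohydrate and food intake therefore cannot be told apart here, and the part of each was not tested. Most respiratory chain genes were slightly higher in HPHC than in HFHC mice, but no member passed the test. The difference was positive for 81 of 90 members, with a median of 0.07 on the log2 scale, whereas 53.2% of all genes were positive with a median of 0.006. At an adjusted p under 0.05 (limma, Benjamini-Hochberg over all probe sets) 0 members were called, and 0.0165% of all genes were. At an unadjusted p under 0.05, 10 members were higher and 0 lower, and 2.04% of all genes were higher. The direction held for 35 of 36 complex I genes, 4 of 4 of complex II, 7 of 8 of complex III, 13 of 17 of complex IV, 16 of 17 of complex V and 6 of 8 assembly factors.

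The size of this shift depended on few arrays. Without array A06 the median fell from 0.07 to 0.04 and 69 members were positive. With array B25 included it was 0.03, with 68 positive. The control signal that tracks RNA integrity, the log2 signal of the 3′ minus the 5′ control probe sets of Gapdh and beta-actin, averaged 0.48 in both 2-d groups. With it as a covariate the median remained 0.07 and 81 members were positive. A second probe set above the median level existed for 46 members, and the 2-d diet difference was positive on 44 of the brightest and 40 of the next brightest of them. Marker genes of liver cells lay beside this shift: at 2-d all 8 Kupffer cell and macrophage markers had lower values in HPHC mice, with a median of -0.11 and 0 at an unadjusted p under 0.05, and all 7 hepatocyte markers had higher ones, with a median of 0.01 and 1 at an unadjusted p under 0.05. Their part in it was not tested.

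**Figure D2:**
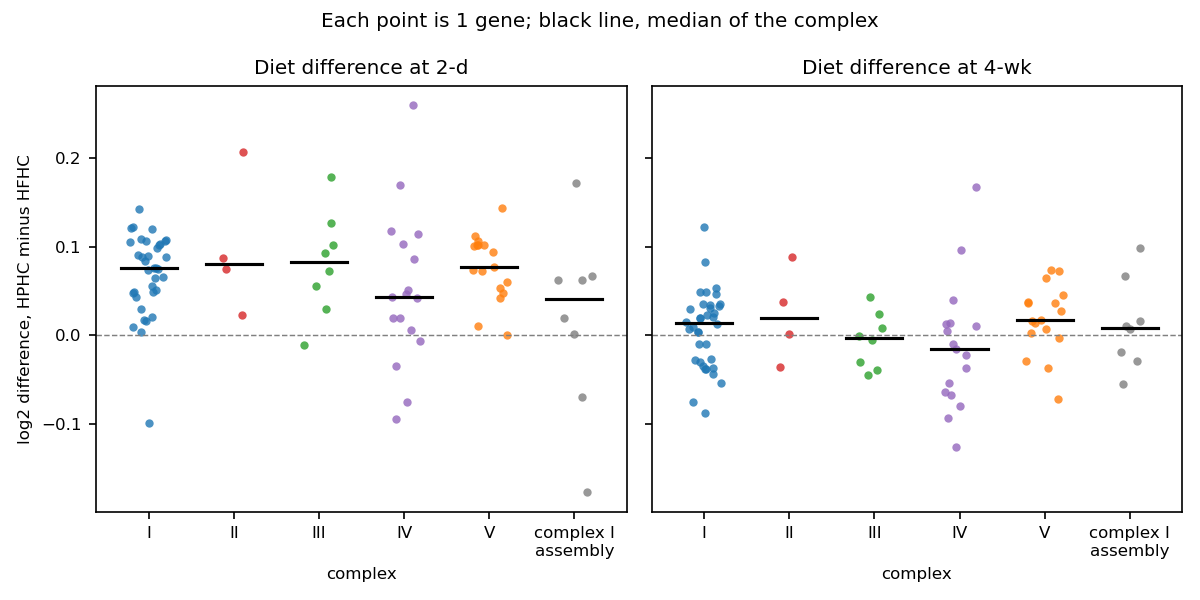
Log2 difference of each member between HPHC and HFHC mice (vertical axis) by complex, at 2-d (left) and 4-wk (right); each point is a gene and the black line is the median of the complex. At 2-d 81 of 90 points lie above 0, and at 4-wk 54 do; no point passed the adjusted test.

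In complex II, which also belongs to the citric acid cycle, Sdhb (probe set 1418005_at), the iron-sulfur subunit, had the largest 2-d difference. Its level ranged from 11.80 over a median of 12.48 to 12.69 in HFHC mice and from 12.37 over 12.59 to 12.72 in HPHC mice. The mice on A06 and A09, at 11.81 and 11.80, stood below the other 10 HFHC mice, which were at 12.37 or above. The difference was 0.21 ± 0.07 (SE; limma p = 0.00393, adjusted p = 0.9998). The flavoprotein Sdha differed by 0.07, and the membrane anchors Sdhc and Sdhd by 0.02 and 0.09.

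In complex III, Uqcrc1 (1428782_a_at), a core subunit, ranged from 11.54 over a median of 12.07 to 12.24 in HFHC and from 12.03 over 12.20 to 12.35 in HPHC mice. The 4 lowest HFHC mice, at 11.54, 11.74, 11.85 and 12.01, lay below all HPHC mice. The difference was 0.18 ± 0.06 (SE; limma p = 0.00351, adjusted p = 0.9998). The small subunits Uqcr10 (0.13) and Uqcrh (0.10) also had unadjusted p-values under 0.05. The other core subunit Uqcrc2 differed by 0.06, the Rieske iron-sulfur protein Uqcrfs1 by 0.07 and Uqcrb by 0.03.

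In complex IV, Cox7c (1459885_s_at) ranged from 5.39 over 5.80 to 6.19 in HFHC and from 5.50 over 6.11 to 6.36 in HPHC mice. Its difference of 0.26 ± 0.08 (SE; limma p = 0.00306, adjusted p = 0.9998) was the highest of the 90, at a signal below the median of all probe sets. Cox5b (1456588_x_at), a nuclear-encoded subunit on the matrix side, differed by 0.12 and 10 of 11 HPHC mice lay above the HFHC median, and its second bright probe set gave 0.15. Cox6b1 differed by 0.11, Cox5a by 0.10, Cox8a by 0.09, Cox6c by 0.05 and Cox4i1 by 0.04. Of these, Cox5b and Cox6b1 had an unadjusted p under 0.05 on their brightest probe sets. The second bright probe set of Cox8a gave 0.14 (limma p = 0.0309).

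Isoforms of complex IV subunits known mainly from muscle, lung or testis were also measured. Cox6a2 and Cox8b, the heart and skeletal muscle forms, had values of -0.09 and -0.08, and Cox7a1, a further muscle form, differed by 0.17 with the widest spread of any member among HPHC 2-d mice (SD 0.37). Cox4i2 differed by 0.02, Cox6b2 by -0.03, Cox7b2 by 0.04 and Cox8c by -0.01. The widespread counterparts Cox6a1 and Cox7a2 differed by 0.01 and 0.05, and Cox7a2l, a gene with a related name, by 0.02. On its brightest probe set, none of the genes named in this paragraph had an unadjusted p under 0.05 for diet at 2-d. The second bright probe set of Cox6a1 gave 0.09 (limma p = 0.0431). The skeletal muscle markers, 7 of 7 measured, had mouse means of 5.84 to 6.27 in HFHC and 5.88 to 6.19 in HPHC 2-d mice, below the median of all probe sets.

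In complex V, the catalytic beta subunit Atp5b (1416829_at) ranged from 12.54 over 13.11 to 13.22 in HFHC and from 12.93 over 13.18 to 13.33 in HPHC mice. The groups overlapped over most of their range, and the difference was 0.14 ± 0.06 (SE; limma p = 0.0252, adjusted p = 0.9998). Atp5o, of the stalk that links both parts of the enzyme, differed by 0.11 (p = 0.0433). The catalytic-head subunits Atp5a1 and Atp5c1 each differed by 0.10, as did Atp5k and Atp5j2, and Atp5e by 0.08. The 3 genes for the same membrane ring subunit differed by 0.09 (Atp5g1), -7.58e-05 (Atp5g2) and 0.04 (Atp5g3).

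In complex I, Ndufs3, a subunit of the peripheral arm, ranged from 11.20 over 11.69 to 11.82 in HFHC and from 11.61 over 11.73 to 11.87 in HPHC mice, a difference of 0.12 (limma p = 0.0288, adjusted p = 0.9998). Ndufa10 differed by 0.14, Ndufs7 by 0.12, Ndufb10, Ndufv1, Ndufa9 and Ndufb5 by 0.11, Ndufs1 and Ndufa5 by 0.10, and Ndufb8 by 0.09. Ndufa8 was the sole complex I gene with a negative value, -0.10. Ndufa4 and its paralog Ndufa4l2, placed here by symbol alone, differed by 0.09 and 0.04. Among assembly factors, Ndufaf6 differed by 0.17, Ndufaf2 by -0.18, Ndufaf4 by 0.06 and Ndufaf5 by 0.02. Apart from Ndufs3, no gene in this paragraph had an unadjusted p under 0.05.

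After 4 weeks no member differed between the diets by the adjusted test. The difference was positive for 54 of 90 members, with a median of 0.009, beside 40.1% positive and a median of -0.02 over all genes. At an adjusted p under 0.05, 0 members were called by limma and 0% of all genes were. At an unadjusted p under 0.05, 1 member was higher (Cox7c, 0.17, p = 0.0458) and 0 lower, and 0.83% of all genes were higher. The separate 95% intervals of the 90 differences, on the brightest probe sets, lay between -0.34 and 0.35. They are not joint intervals, so they do not bound every diet difference at 4-wk. The sign of the median turned without any one of 3 arrays: it was -0.02 without A24, with 25 members positive, -0.01 without B47, with 36 positive, and -0.0016 without A22, with 43 positive. With each of the 47 arrays left out in turn it lay between -0.02 and 0.02. At 4-wk 7 of 8 Kupffer cell and macrophage markers had lower values in HPHC mice, with a median of -0.31 and 4 at an unadjusted p under 0.05, and 6 of 7 hepatocyte markers had higher ones, with a median of 0.02. Their part in the values of the members was not tested.

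Sdhb levels ranged from 12.27 over 12.45 to 12.57 in HFHC 4-wk and from 12.40 over 12.48 to 12.60 in HPHC 4-wk mice, and the difference was 0.04. Uqcrc1 differed by -0.03, Cox5b by -0.02 and Atp5b by 0.05. Cox7c ranged from 5.82 over 6.10 to 6.36 in HFHC and from 5.96 over 6.25 to 6.57 in HPHC mice. On its other, dimmer probe set the 4-wk diet difference was -0.01 (limma p = 0.844). Among the lower values were Cox8b (-0.13), Cox6a2 (-0.09), Ndufa8 (-0.09), Cox4i2 (-0.08) and Atp5mpl (-0.07), and among the higher ones Ndufa5 (0.12), Cox7b2 (0.10), Ndufaf6 (0.10) and Sdhd (0.09). Of the members named in this paragraph, Cox7c alone had an unadjusted p under 0.05. Of 7 skeletal muscle markers at 4-wk, 5 had lower and 2 higher values in HPHC mice, with a median of -0.13. Of the lower ones, 1 had an unadjusted p under 0.05. Mouse means of these markers reached 6.97 in HFHC and 6.16 in HPHC 4-wk mice. Their part in the values of the muscle isoforms was not tested.

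The difference between the diet effects, 4-wk minus 2-d, was negative for 75 of 90 members with a median of -0.06, against a median of -0.02 over all genes. Without array A06 the median was -0.03 and 25 members were positive, and with B25 included it was -0.02 with 30 positive. At an adjusted p under 0.05, 0 members were called by limma and 0% of all genes were. At an unadjusted p under 0.05, 3 members were lower, Uqcrc1 (-0.21, p = 0.0136), Uqcr10 (-0.17, p = 0.0400) and Cox5b (-0.14, p = 0.0486), and 1.08% of all genes were lower. The data thus do not show that the diet effect differed between 2-d and 4-wk for any single member.

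**Figure D3:**
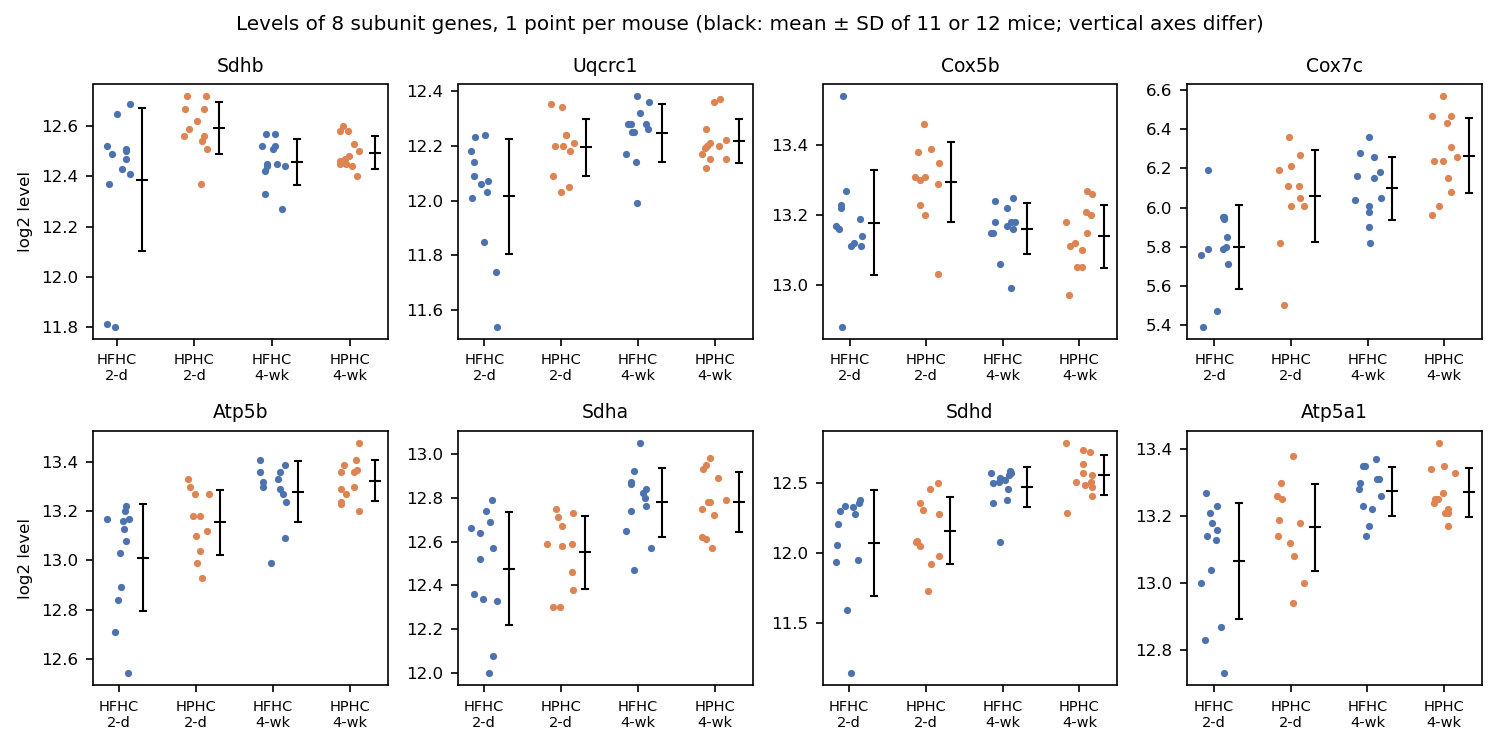
Log2 level (vertical axis, a different range in each panel) of 8 subunit genes in each mouse of the HFHC and HPHC groups at 2-d and 4-wk; black marks are the mean ± SD of 11 or 12 mice. Sdhd averages 12.07 and 12.16 at 2-d and 12.47 and 12.56 at 4-wk, and all 8 genes overlap between groups.

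The last comparisons set 4-wk against 2-d mice within each diet. In HFHC mice, 9 members rose at an adjusted p under 0.05 (limma) and 0 fell, where 4.76% of all genes rose and 1.25% fell. In all, 63 of 90 members were positive, with a median of 0.03, beside 0.007 over all genes. This median was 0.0056 without array A06, with 46 positive, and 0.05 without A04, A08 or A24. In HPHC mice, 1 member rose, Sdhd, and 2 fell, Cox5b and Ndufaf4, where 4.16% of all genes rose and 1.87% fell. There 36 of 90 were positive with a median of -0.02, as over all genes, and it was -0.008 without B28 or B40, -0.01 without B33 or B34 and -0.04 without B31 or B47. At an unadjusted p under 0.05, 9 members were lower in HPHC mice, where 7.75% of all genes were. The ranges of 4-wk and 2-d mice overlapped for every one of the 90 members in both diets.

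Sdhd (1428235_at), a membrane anchor of complex II, had the largest rise in both diets. It ranged from 11.14 over 12.25 to 12.38 in HFHC 2-d, from 11.73 over 12.09 to 12.50 in HPHC 2-d, from 12.08 over 12.52 to 12.59 in HFHC 4-wk and from 12.29 over 12.54 to 12.79 in HPHC 4-wk mice. The 2 lowest HFHC 2-d mice, at 11.14 and 11.59, were on arrays A01 and A02. The rise was 0.40 ± 0.10 (SE; limma adjusted p = 0.00528) in HFHC and 0.40 ± 0.10 (SE; limma adjusted p = 0.00648) in HPHC mice, 1.32-fold in each.

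Sdha (1426688_at) ranged from 12 over a median of 12.55 to 12.79 in HFHC 2-d and from 12.47 over 12.81 to 13.05 in HFHC 4-wk mice. Its lowest HFHC 2-d mice were those on A01 and A02 as well, the second at 12.08. It rose by 0.30 ± 0.07 (SE; limma adjusted p = 0.00583) in that diet and differed by 0.23 in HPHC mice (limma adjusted p = 0.0564). Atp5b rose by 0.27 ± 0.06 (SE; limma adjusted p = 0.00269) in HFHC mice, from a 2-d range of 12.54 to 13.22 to a 4-wk range of 12.99 to 13.41. The ATP synthase alpha subunit Atp5a1 (1423111_at) rose by 0.21 in HFHC mice, and all 12 of the 4-wk mice lay above the 2-d median.

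The remaining rises in HFHC mice were those of Cox7c (0.30), Ndufb5 (0.24), Uqcrc1 (0.23), Cox5a (0.18) and Atp5mpl (0.15), a small ATP synthase subunit. In HPHC mice these 5 genes differed by 0.21, 0.16, 0.02, 0.06 and 0.03, and none passed the adjusted test there. Whether the change with duration differed between the diets is the same test as the difference between diet effects above, in which 0 members passed. The 2 genes that fell in HPHC mice were the complex I assembly factor Ndufaf4, by 0.23, and Cox5b, by 0.16. None of the 12 HPHC 4-wk mice lay above the 2-d median of either gene, and in HFHC mice these genes differed by -0.11 and -0.02.

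Across the 90 members the change with duration had a Pearson correlation of 0.82 between HFHC and HPHC mice, which share no arrays. Both values were positive for 36 members and negative for 27, and they were opposite for 27. This is a description across genes, which are not independent. The mice of each duration may also share what came with their day of collection.

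**Figure D4:**
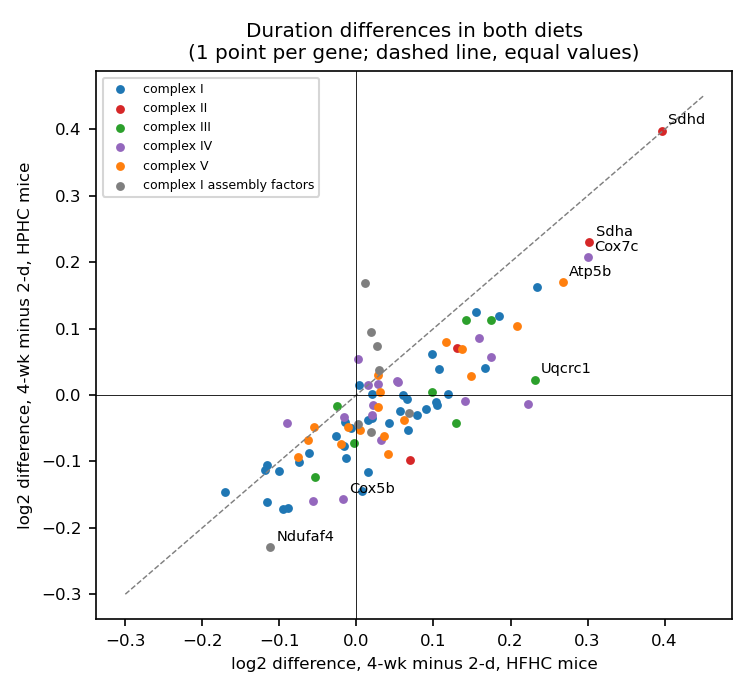
Log2 difference of each member between 4-wk and 2-d mice in HFHC (horizontal axis) and HPHC mice (vertical axis), coloured by complex, with equal values on the dashed line. The correlation across 90 genes is 0.82, with Sdhd highest in both at 0.40, and 75 of 90 points lie below the dashed line.

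The control signal that depends on RNA integrity was lower in 4-wk mice. The 3′ minus 5′ control signal averaged 0.48 ± 0.19 (SD, n = 12) and 0.48 ± 0.13 (SD, n = 11) in HFHC and HPHC 2-d mice, but 0.24 ± 0.07 (SD, n = 12) and 0.27 ± 0.11 (SD, n = 12) in the 4-wk mice. The 2 arrays with the lowest Sdhd levels, A01 and A02, had values of 0.90 and 0.735, against a group median of 0.44. With this signal as a covariate, 1 of the 9 calls remained in HFHC mice, that of Cox7c (0.41, limma adjusted p = 0.0146), and 0 of 3 in HPHC mice. The rise of Sdhd in HFHC mice went from 0.40 to 0.01, that of Sdha from 0.30 to 0.03, of Atp5b from 0.27 to 0.06 and of Uqcrc1 from 0.23 to 0.18. Ndufaf4 and Cox5b in HPHC mice went from -0.23 to -0.23 and from -0.16 to -0.14, neither passing. Because the covariate follows duration, this fit cannot tell the effects of both apart.

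Some members were read on more than 1 probe set. On the next brightest probe set, the change with duration in HFHC mice was -0.01 for Sdhd, 0.05 for Sdha, 0.004 for Atp5a1, 0.05 for Cox5a and -0.05 for Ndufb5. Of the 9 called genes, these 5 had a second probe set above the median level, and on it none had an unadjusted p under 0.05. Over 46 members with 2 such probe sets, both had the same sign in 24 for duration in HFHC mice and in 40 for diet at 2-d. The fall of Cox5b in HPHC mice also passed on its second probe set (-0.20, limma adjusted p = 0.00901). For Ndufaf4 and Sdhd in HPHC mice only the sign was the same there. Their values were -0.07 (limma p = 0.480) and 0.13 (limma p = 0.153).

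**Figure D5:**
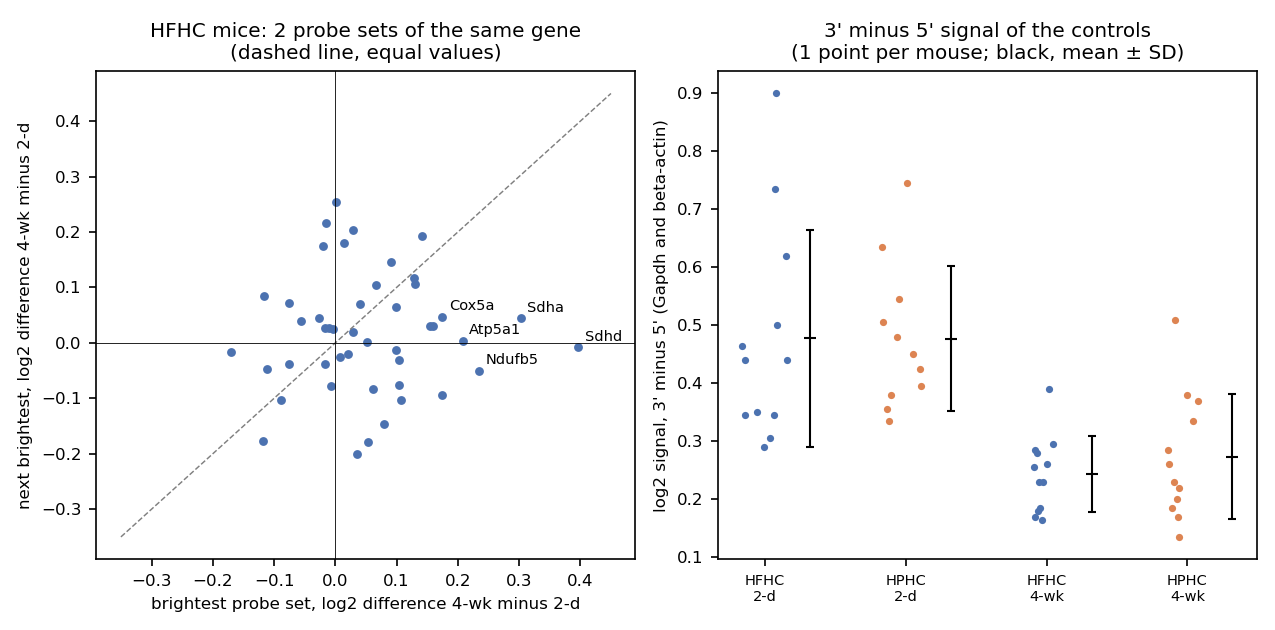
Left, log2 difference between 4-wk and 2-d HFHC mice on the brightest (horizontal axis) and next brightest probe set (vertical axis) of 46 members; right, log2 3′ minus 5′ signal of control probe sets (vertical axis) in each mouse, with mean ± SD. Sdhd lies at 0.40 and -0.01, and the 4-wk groups average 0.24 and 0.27 against 0.48 in both 2-d groups.

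Markers of other liver cells also differed with duration, and in bulk RNA fewer cells of a type and less RNA per cell cannot be told apart. Of 8 Kupffer cell and macrophage markers, 7 rose in HFHC and 5 in HPHC mice, with medians of 0.83 and 0.60. Their mouse means ranged from 8.04 to 9.10 and from 8.09 to 8.87 in the 2-d groups, and from 8.74 to 10.04 and from 8.13 to 9.58 in the 4-wk groups. Of 4 sinusoidal endothelium markers, 3 and 4 rose, with medians of 0.76 and 0.71. Of 7 hepatocyte markers, 0 rose and 1, the liver transcription factor Hnf4a, fell in each diet, with list medians of -0.002 and -0.04. Their mouse means lay between 12.83 and 13.50 in all groups, far above the median of all probe sets. The part of these cells in the duration differences was not tested. For diet at 2-d and at 4-wk, 0 of the markers in these lists passed the adjusted test by limma.

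Other genes of mitochondrial energy supply were read from lists, whose counts for diet at 2-d stand beside the 53.2% of all genes that were positive. At 2-d the diet difference was positive for 13 of 17 citric acid cycle genes, with a median of 0.09, for instance 0.15 for the isocitrate dehydrogenase subunit Idh3a. It was positive for 10 of 17 genes of electron entry to coenzyme Q and its synthesis, including Prodh, the first enzyme of proline degradation (0.30, p = 0.00649), and Coq10a (0.16, p = 0.0124). Gpd2, the mitochondrial glycerol phosphate dehydrogenase, was at -0.36 (p = 0.0118). It was positive for 13 of 22 regulators of mitochondrial biogenesis, with values of 0.17 for the nuclear receptor Esrra (p = 0.0423), 0.15 for Polg2 (p = 0.0459) and 0.26 for the coactivator Ppargc1b (p = 0.0526). It was positive for 22 of 40 assembly factors (Cox11 0.19, Coa6 0.23), 6 of 10 genes of coupling and ATP export and 35 of 76 genes of the mitochondrial ribosome (Mrpl47 0.19), whose median was -0.005. By limma, 0 genes of these lists passed the adjusted test for diet at 2-d, at 4-wk or in the difference between both.

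With duration, the counts of these lists stand beside the 4.76% of all genes that rose in HFHC and the 4.16% that rose in HPHC mice. In HFHC mice, 2 of 17 citric acid cycle genes rose, Dlat (0.33) and Sucla2 (0.32). Of 17 genes of electron entry and coenzyme Q synthesis 1 rose, Etfdh (0.37), which passes electrons from fatty acid oxidation to coenzyme Q. The ADP and ATP carrier Slc25a4 rose by 0.86 in HFHC and by 0.64 in HPHC mice. Of 76 mitochondrial ribosome genes, 3 rose in HFHC and 4 in HPHC mice. Nubpl, a complex I assembly factor, rose in both diets (0.34 and 0.35), and Tmem126b, another one, in HPHC mice (0.36). The same difference in control signal lies beside these calls, and its part in them was not tested. Of the subunits encoded in mitochondrial DNA, ND5 was the gene measured here, and its diet difference at 2-d was -0.008, beside 0.10 for cytochrome c1 (Cyc1) and -0.04 for cytochrome c (Cycs).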

How the data were processed

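RNA from the livers of 48 mice had been hybridized to Affymetrix arrays with 45101 probe sets. The deposited values are log2 levels that the authors made by RMA (background correction, normalization between arrays, summary per probe set); the log base was read from their range. Array B25 was left out, as in the study. After removal of 64 controls, 45037 probe sets were fitted by limma 3.58.1 in R 4.3.3 (group means, eBayes with trend, two-sided tests) for 5 comparisons, with Benjamini-Hochberg adjustment over all of them and a threshold of 0.05, in place of the study's one-way ANOVA with Global Error Assessment. Each gene was read on its brightest probe set with 1 symbol; 932 probe sets had several. The members, lists and rules were chosen with earlier results of these data known. Named members were those called, the 3 with the smallest p in each complex for diet at 2-d or 4-wk, landmark subunits and isoform sets, and up to 3 genes of each other list; genes of other lists named for duration were chosen after their values were seen. Alternatives covered arrays, scaling, probe sets, covariates and the model. The number of arrays limits the precision. Data were simulated for the 2-d diet comparison over 45037 probe sets. There, 89 of 100 shifts of 0.5 and 98 of 100 shifts of 1 were recovered, with 13 of 200 calls false. These shifts were larger than any 2-d diet difference of the members, of which the highest was 0.26. Noise was drawn independently for each probe set, whereas members varied together. Recovery of shifts as small as theirs was not simulated, so these rates do not carry over to them. Each p-value sets a difference of group means against the spread between mice within groups, moderated across probe sets. For duration, that spread does not cover age or day of collection, which the mice of a group shared.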

Additional observations from a re-analysis of the deposited data

How the results depend on the processing

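For diet at 2-d, at 4-wk and in the difference between both, 0 members were called in the main fit, under each of 13 alternatives and without each of 47 arrays in turn, the last chosen after seeing the data. The count for 4-wk minus 2-d in HFHC mice, 9, was 1 with the RNA quality covariate, 17 after cyclic loess, 5 with only the groups compared, 4 with a gene's probe sets averaged and 3 by ordinary ANOVA; leaving out single arrays gave 6 to 14, and 14 came without A24. In HPHC mice the count, 3, was 0 with the covariate, 10 with array weights, 5 with brighter probe sets, 14 after cyclic loess, 7 with only the groups compared, 1 after median centring, 8 by ordinary ANOVA and 8 without A01, A09 and A24. Single arrays gave 1 (without B28, B35, B36 or B45) to 7 (without A01), with 5 without B31 or B37. The causes were not tested, except that the covariate follows duration.

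The median at 2-d lay between 0.03 and 0.08 under the alternatives, and that for duration in HFHC mice between 0.0036 with the covariate and 0.07 without A01, A09 and A24. At 4-wk it was -0.03 with array weights and -0.02 without A01, A09 and A24, and in HPHC mice with duration it was 0.01 with B25 included, so these directions turned. Atp5a1 over duration in HFHC mice reversed to -0.019 with its probe sets averaged. Of 155 values for named members that were called, 41 no longer passed and that of Atp5a1 was the one whose sign turned. For named members not called, the 1420 values compared are those for diet at 2-d and at 4-wk. None of them passed under an alternative, each moved by less than the SD between mice, and 59 turned sign. Where the sign turned, the value had been at most 0.09 in size. Members not called with duration are not among these values, and some of them passed under alternatives, as the higher counts above show. Replicate numbers did not pair the mice: over 69 same-numbered pairs the correlation of deviations had a median of -0.02 (from -0.62 to 0.60, 22 above 0.1), and 3 of 47 arrays correlated best with their own number. With the replicate number as a block, 7 and 8 members were called with duration in HFHC and HPHC mice.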
